A study of Mus musculus with 4 samples.

Results

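The genes described here encode the E2F transcription factors E2f1, E2f2, E2f3, E2f4, E2f5, E2f7 and E2f8 and the pocket proteins Rb1, Rbl1 and Rbl2, 10 of the 22180 genes measured. They were taken by name, with every probe set that the platform annotation gives to one of them alone, which were 11 of 23521 probe sets. Expression was compared between resting and proliferating Tregs, the Foxp3-expressing T-cells that hold other T-cells in check, of NOD mice, a strain prone to autoimmune diabetes. In both groups the cells had spent 5 days with dendritic cells grown from bone marrow in GM-CSF (G-BMDCs), and no drug, knockout or transgene is named for either group. Resting Tregs had retained a division-tracking dye and proliferating Tregs had diluted it, with CFSE named in the labels and Cell Trace Violet in the methods. Each group had 2 arrays, and neither the age of the mice nor whether the arrays came from separate cultures is stated, so that p-values here reflect the scatter of these arrays alone, and part of it or all of it may be technical.

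E2F factors switch on the genes that carry a cell from G1 into DNA replication. In a resting cell the pocket proteins, which are the retinoblastoma protein and its relatives p107 and p130, hold E2F factors silent, and cyclin-dependent kinases release them by phosphorylating the pocket proteins. E2F1 to E2F3 act mainly as activators, E2F4 and E2F5 mainly as repressors together with pocket proteins, and E2F7 and E2F8 repress without a pocket protein or a DP partner. Much of this control acts on the proteins and not on their RNA, and only RNA was measured here. Several E2F and pocket protein genes are themselves known E2F targets, and their promoter sequence is therefore shown before their values.

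Promoter windows of RefSeq on GRCm38.p6, from 250 bases before to 50 bases after an annotated start, matched 7 of the 10 genes, with 2 windows each for E2f2 and E2f3. An E2F octamer (TTTCCCGC, TTTCGCGC, TTTGCCGC or TTTGGCGC, on either strand) was found in 4 of these 9 windows, against 2.26% of all 32851 windows. The octamer lay in windows of E2f2, E2f3, E2f7 and Rbl1, and it is in capitals in the following stretches of 30 bases, each read along the strand of its gene.
Rbl1: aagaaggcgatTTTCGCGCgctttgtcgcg
E2f2: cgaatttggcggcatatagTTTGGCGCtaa
E2f3: ttgaaaagccgGCGGGAAAtctgagtttcg
E2f7: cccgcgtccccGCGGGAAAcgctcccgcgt
The stretches lie at chr2:157204534-157204563 (minus strand), chr4:136172294-136172323 (plus strand), chr13:29986056-29986085 (minus strand) and chr10:110745230-110745259 (plus strand). Counted from the annotated start, the octamer began at -18 in Rbl1, 40 in E2f2, -11 in E2f3 and -198 in E2f7, and in E2f3 and E2f7 it is read on the opposite strand. The 7-letter core without the first T, which every octamer contains, was also present in E2f8, so that 5 of 9 windows held it against 9.57% of all windows. The CHR element TTTGAA, a sequence known to be bound by the MuvB complex, was found in 4 of the 9 windows (E2f2, E2f3, E2f8 and Rbl2), against 17.9% of all windows. In E2f2 it lay in the second window and not in the one with the octamer. These matches describe letters and not binding, and the windows of E2f1 and E2f8 and the second windows of E2f2 and E2f3 lie inside the annotated genes, so that sequence before the outermost start was not searched for E2f1 and E2f8.

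All 10 genes were higher in proliferating Tregs, by 1.38-fold to 2.54-fold, whereas 25.6% of all genes tested passed in that direction, 34.5% in the other and 60.1% in all. None of the 10 was lower. The median log2 fold change of the 10 genes was 1.02, and the median over all genes was -0.17. In each of the 10 genes both proliferating arrays lay above both resting arrays, an arrangement found in 33.0% of all genes. At a log2 fold change of at least 1, 5 of the 10 genes remained called (E2f2, E2f3, E2f8, Rbl1 and Rbl2), against 12.6% of all genes. Values are deposited log2 expression values, tested with limma and adjusted by Benjamini-Hochberg over all genes, and a gene was called at an adjusted p under 0.05. Each gene was read from its brightest probe set, a choice that matters for Rb1. After Benjamini-Hochberg adjustment the methods' t-test called 2 of the 10 higher (E2f8 and Rbl2), against 12.5% of all genes. The calls for the other 8 were lost. The directions of all 10 held after quantile normalization. Median centring of the arrays raised every log2 fold change by the same amount (E2f1 from 0.50 to 0.79), so that it could not turn a positive change negative. Once the arrays were centred on housekeeping genes, or on the Cd3 chains of the T-cell receptor (Cd3d, Cd3e, Cd3g), all 10 log2 fold changes were negative.

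**Figure D1:**
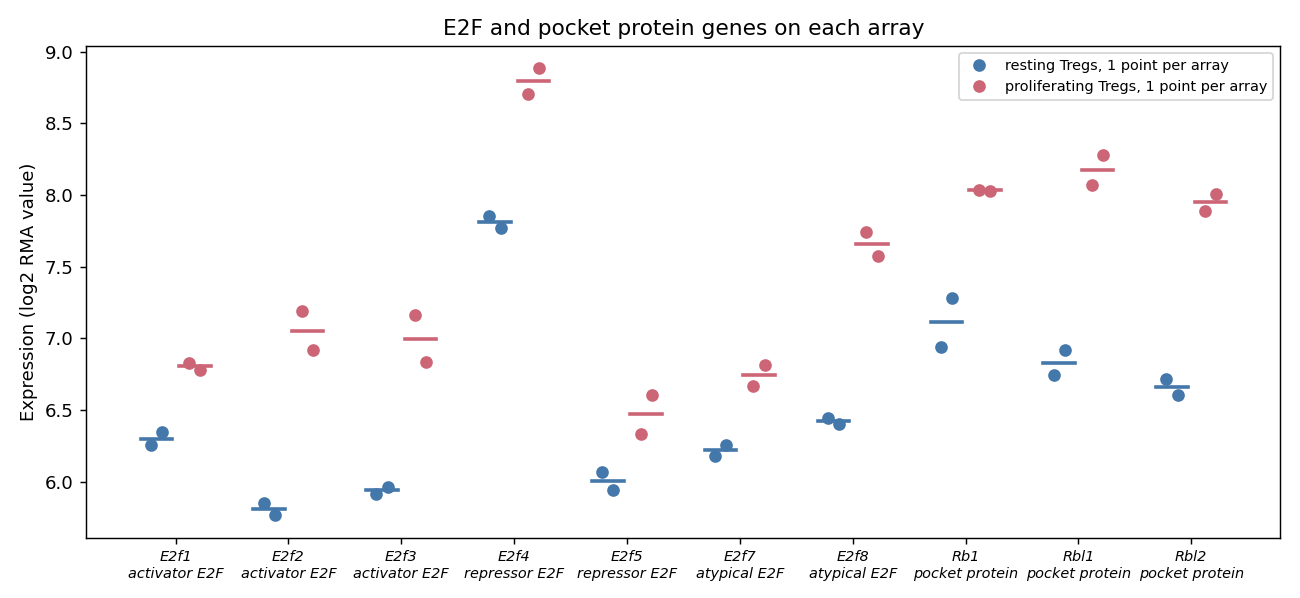
Log2 expression value (vertical axis) of each of the 10 genes on each of the 4 arrays, with 1 point per array and a bar at the mean of the 2 arrays of a group. In all 10 genes both proliferating points lie above both resting points.

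Among the activators, E2f1 (chr2:154559400-154569892) changed least. Resting arrays gave log2 values of 6.25 and 6.35 and proliferating arrays 6.83 and 6.78, and the groups did not overlap. From 6.30 ± 0.066 it rose to 6.80 ± 0.033 (SD, n = 2 arrays per group), a 1.42-fold increase with a 95% interval of 1.15 to 1.74 (adjusted p = 0.0111 from limma). E2f1 is the factor through which the retinoblastoma protein is classically known to restrain entry into S phase. Without resting replicate 1 its log2 fold change was 0.46 and it no longer passed (adjusted p = 0.0790).

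E2f2, an activator known in mice to limit T-cell responses, is located at chr4:136172274-136196057. It stood at 5.85 and 5.77 in resting Tregs and at 7.19 and 6.92 in proliferating Tregs. Both proliferating values were clear of the resting ones by more than the difference between replicates. The increase was 2.37-fold with a 95% interval of 1.88 to 3.0 (log2 fold change 1.25, standard error 0.14, adjusted p = 3.35e-04 from limma).

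E2f3 (chr13:29906575-29986064) encodes an activator and, from a second start within the gene, a shorter isoform, and its single probe set is not known to separate them. The log2 value was 5.92 and 5.97 in resting Tregs and 7.16 and 6.83 in proliferating Tregs. The proliferating arrays differed more from each other than the resting arrays did, yet the lower of them was well above both resting arrays. The gene rose 2.08-fold, with a 95% interval of 1.63 to 2.65 (adjusted p = 9.17e-04 from limma).

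The repressor gene E2f4 (chr8:105297663-105305370), whose protein is the main E2F on promoters of non-dividing cells, rose as well. It read 7.86 and 7.77 in resting Tregs and 8.71 and 8.88 in proliferating Tregs, a 1.98-fold difference with a 95% interval of 1.59 to 2.46 (adjusted p = 7.43e-04 from limma). The groups were separate, but the size of the change depended on scale, since the log2 fold change was 0.98 on the deposited values and 0.44 after quantile normalization.

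E2f5 (chr3:14578602-14606309), the other repressor, which works mainly with p130, showed the smallest change of the 10 genes. Resting Tregs had log2 values of 6.07 and 5.94 and proliferating Tregs 6.33 and 6.61. The lower proliferating array exceeded the higher resting array by 0.27, which is about the difference between the proliferating arrays themselves (0.28). The increase was 1.38-fold with a 95% interval of 1.09 to 1.75 (adjusted p = 0.0268 from limma). E2f5 was no longer called without resting replicate 1 (adjusted p = 0.0889), without resting replicate 2 (0.149) or without proliferating replicate 2 (0.113), and in the latter setting its log2 fold change fell to 0.33. After quantile normalization the log2 fold change was 0.70.

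The atypical pair differed in the size of its values. E2f8 (chr7:48866429-48882073) had log2 values of 6.44 and 6.40 in resting Tregs and of 7.74 and 7.58 in proliferating Tregs. The replicates of E2f8 lay close together in both groups, and the increase was 2.36-fold with a 95% interval of 1.91 to 2.92 (adjusted p = 2.20e-04 from limma). E2f7 (chr10:110745439-110787384) had log2 values of 6.18 and 6.26 in resting Tregs and of 6.67 and 6.82 in proliferating Tregs. Again the groups did not overlap, but the increase of E2f7 was 1.44-fold, with a 95% interval of 1.16 to 1.78 (adjusted p = 0.0108 from limma). The proteins of this pair bind DNA without DP partners and are known to shut down E2F target genes, E2f1 among them, late in the cell cycle. The call for E2f7 was lost without resting replicate 1 (log2 fold change 0.48, adjusted p = 0.0786) and without resting replicate 2 (0.56, adjusted p = 0.0536). The intervals of E2f7 and E2f8 did not overlap, and the difference between the genes was not tested.

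All 3 pocket protein genes were higher in proliferating Tregs, although pocket proteins are known as brakes on the cell cycle. Rbl1, which encodes p107 (chr2:157145893-157204534), had the largest increase when each gene was read from its brightest probe set, from 6.74 and 6.92 in resting Tregs to 8.07 and 8.28 in proliferating Tregs. That was a rise of 2.54-fold with a 95% interval of 2.02 to 3.20 (adjusted p = 2.16e-04 from limma). In the E2F literature p107 is the pocket protein of cycling cells. Rbl2, which encodes p130 (chr8:91070057-91123844), the pocket protein typical of quiescent cells, was at 6.72 and 6.61 in resting Tregs and at 7.89 and 8.01 in proliferating Tregs. It rose 2.44-fold with a 95% interval of 1.97 to 3.01 (adjusted p = 1.77e-04 from limma), the smallest adjusted p of the 10 genes. The gap between the groups was also widest in Rbl2, where the lower proliferating array exceeded the higher resting array by 1.17.

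Rb1, the retinoblastoma gene (chr14:73192858-73325951), was the only one of the 10 genes with more than 1 probe set of its own. Its brighter probe set read 6.94 and 7.29 in resting Tregs and 8.04 and 8.03 in proliferating Tregs. Here the resting arrays differed by 0.35, the widest spread within a group among the brightest probe sets of the 10 genes, while the proliferating arrays nearly coincided. This probe set gave a rise of 1.90-fold with a 95% interval of 1.48 to 2.43 (adjusted p = 0.00182 from limma). The dimmer probe set of Rb1 read 4.16 and 4.30 in resting Tregs and 6.16 and 7.0 in proliferating Tregs, a 5.09-fold difference with a 95% interval of 3.37 to 7.70 (adjusted p = 2.72e-04 over all probe sets). Both probe sets were higher in proliferating Tregs, by sizes whose intervals did not overlap. A further 2 probe sets carry the names of both Rb1 and Lpar6, the gene of a lysophosphatidic acid receptor, and were not used. They differed between the groups by 1.03 and 0.79 on the log2 scale, also higher in proliferating Tregs. With the mean of its own probe sets, Rb1 had a log2 fold change of 1.64 in place of 0.92, which was above that of Rbl1 (1.35).

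**Figure D2:**
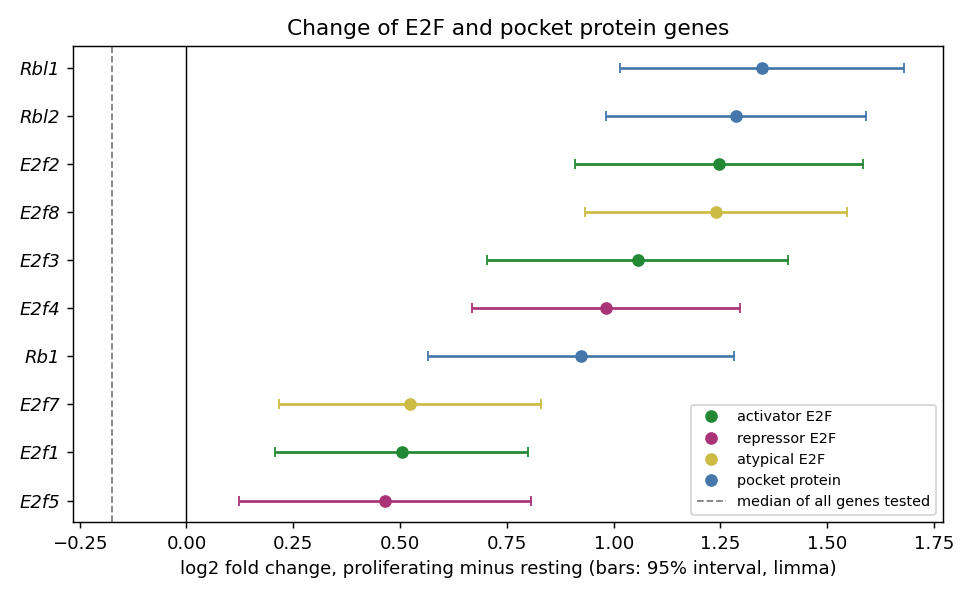
Log2 fold change of each gene, proliferating minus resting (horizontal axis), with its 95% interval from limma, each gene read from its brightest probe set and coloured by role. All 10 intervals lie above 0, from E2f5 at 0.47 to Rbl1 at 1.35, and above the dashed line at the median of all genes (-0.17).

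By their brightest probe sets the genes were, in order of log2 fold change, Rbl1, Rbl2, E2f2, E2f8, E2f3, E2f4, Rb1, E2f7, E2f1 and E2f5. The activators ranged from 0.50 to 1.25, the repressors from 0.47 to 0.98, the atypical factors from 0.52 to 1.24 and the pocket proteins from 0.92 to 1.35. With the mean of its probe sets Rb1 moved from the seventh place to the first, at 1.64. The pocket protein genes then ranked above every E2F gene. Large and small changes occurred within each class of E2F. The pocket proteins had the largest median of the roles, 1.29, but by brightest probe sets their range overlapped that of each E2F class. Differences between roles were not tested. Neighbours in the order by brightest probe set had overlapping intervals. On the scale of all genes the 10 changes lay between percentiles 76.2 and 92.0, and Rbl1 ranked 1766 of 22180 by log2 fold change. The genes nearest to Rbl1 in pattern, by Euclidean distance over the 4 arrays after each gene was centred on its own mean, were Srsf11 (distance 0.034), Bora (0.038) and Eif5b (0.039). None of the 10 genes fell, so the same was done for E2f5, whose nearest genes were Entr1 (0.027), Psrc1 (0.030) and Wdr77 (0.031). Over 4 arrays such closeness mostly restates a similar fold change.

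**Figure D3:**
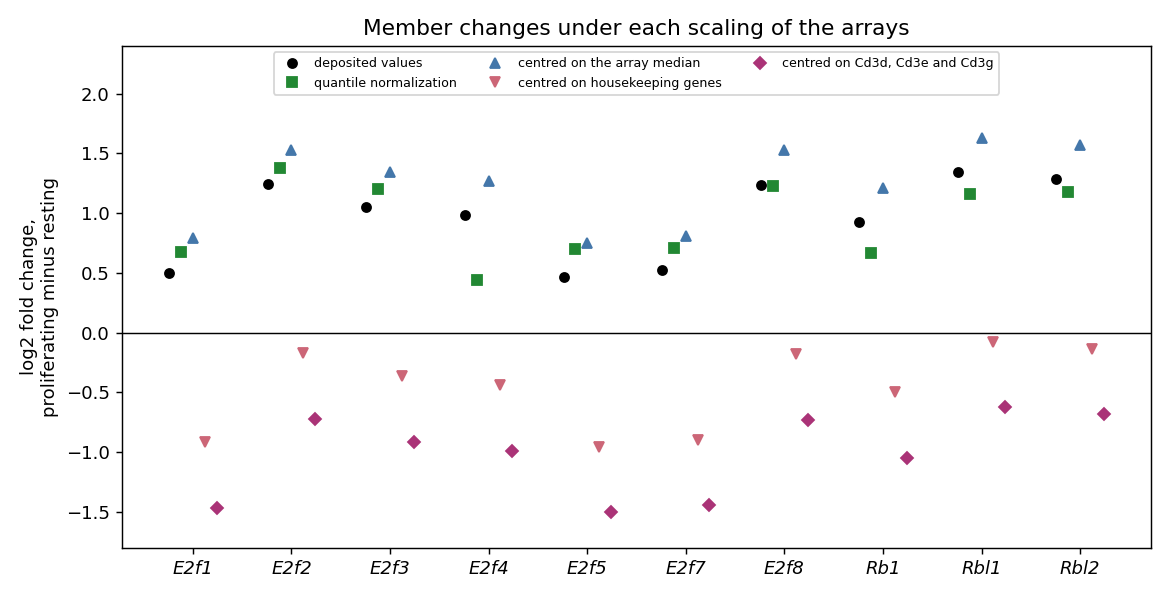
Log2 fold change of each of the 10 genes, proliferating minus resting (vertical axis), on the deposited values and under 4 other scalings of the arrays. The values stay above 0 with the deposited, quantile and median scalings and fall below 0 when centred on housekeeping genes or on Cd3d, Cd3e and Cd3g.

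The direction of every change depended on what the arrays were centred on. The 9 measured housekeeping genes all rose, by 0.35 to 3.52 on the log2 scale, and centring on their mean removed 1.42 from every log2 fold change. The 10 genes were then at -0.96 (E2f5) to -0.0751 (Rbl1), with 5 of them called lower (E2f1, E2f4, E2f5, E2f7 and Rb1) and none higher, while the median of all genes was -1.59. Centring on Cd3d, Cd3e and Cd3g put the 10 genes at -1.50 to -0.62, all called lower, with the median of all genes at -2.14. In these settings 88.4% and 94.7% of all genes were called lower. All 10 genes lay above the median of all genes on the deposited values and after quantile normalization. The other scalings subtract 1 number per array, which cannot change a gene's place relative to that median.

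The RNA came from bulk samples, in which fewer cells of a type and less RNA per cell cannot be told apart. The Treg markers Foxp3, Il2ra, Ctla4, Ikzf2, Cd4 and Cd3e were all higher in proliferating Tregs (6 of 6), and their mean log2 level was 7.71 in each resting array and 9.60 to 9.63 in the proliferating arrays. All 10 neutrophil markers were lower in proliferating Tregs, with a mean level of 9.30 to 9.40 in resting arrays and 5.92 to 5.99 in proliferating arrays. All 8 measured B-cell markers were lower too, at 8.55 to 8.64 against 5.98 in each array. Of 13 dendritic and myeloid markers 6 were higher, 2 were lower and 5 did not pass, with mean levels of 6.85 to 6.93 and 7.41 to 7.54. The 3 measured erythroid markers were lower, at 7.40 to 7.41 against 6.13 to 6.24. No marker is at a true 0 on this scale, and the part of other cells in the changes of the E2F and pocket protein genes was not tested.

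Genes that act with the E2F and pocket proteins were read from 6 lists, in which 39 of 49 measured genes were higher, 1 was lower and 9 did not pass, against 25.6% higher and 34.5% lower among all genes. With housekeeping centring 16 of the 49 were higher and 22 lower, against 4.16% and 88.4% of all genes. With Cd3 centring 4 were higher and 31 lower, against 1.48% and 94.7% of all genes. The counts of single lists under these centrings are to be read against the same shares. DP proteins form the DNA-binding pair with E2F1 to E2F6. Tfdp1 was the 1 of 3 genes of that list to pass, from 7.01 and 7.14 in resting Tregs to 8.91 and 8.96 in proliferating Tregs (3.64-fold, adjusted p = 3.20e-05 from limma). Tfdp2 and E2f6, an E2F that represses without pocket proteins, had log2 fold changes of 0.40 (adjusted p = 0.0597) and 0.39 (0.110), and both passed after quantile normalization, where 3 of 3 genes were higher. With housekeeping centring 1 of the 3 was higher and 2 lower, and with Cd3 centring 0 were higher and 2 lower.

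Of the cyclins and kinases that phosphorylate pocket proteins, 6 of 7 measured genes rose and Ccnd1 fell. Ccnd2 read 7.63 and 7.49 in resting Tregs and 10.93 and 10.89 in proliferating Tregs, a 10.2-fold rise, and Ccnd3 rose 2.51-fold. Ccnd1 read 6.65 and 6.66 in resting Tregs and 6.0 and 6.07 in proliferating Tregs, a fall of 0.62 on the log2 scale (adjusted p = 0.00440 from limma). After median centring Ccnd1 was at -0.33 and no longer passed (adjusted p = 0.0619). Their kinase partners Cdk4 and Cdk6 rose 4.50-fold and 3.70-fold. Ccne1 and Cdk2, the pair that acts later in G1, rose by 0.57 and 0.68 on the log2 scale, and Ccne1 was no longer called without resting replicate 1 (adjusted p = 0.0603). With housekeeping centring 3 of the 7 genes were higher (Ccnd2, Cdk4 and Cdk6) and 3 lower, and with Cd3 centring 1 was higher (Ccnd2) and 4 lower.

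Inhibitors of these kinases rose in part. The test called 4 of 7 genes higher, 0 lower and left 3 uncalled. Cdkn2c, the gene of the CDK4 and CDK6 inhibitor p18, rose 3.61-fold, Cdkn2d 3.20-fold and Cdkn1a, the gene of p21, 3.01-fold. Cdkn1b, the gene of the quiescence inhibitor p27, stood at 6.58 and 6.61 in resting Tregs and at 7.02 and 7.39 in proliferating Tregs (1.52-fold, adjusted p = 0.0123 from limma). The call for Cdkn1b was lost without resting replicate 1 (adjusted p = 0.0881), without resting replicate 2 (0.0760) and by the methods' t-test. Cdkn2a, Cdkn1c and Cdkn2b had log2 fold changes of -0.35, -0.18 and 0.0562 and did not pass, but Cdkn2a was called lower without proliferating replicate 2 (-0.54, adjusted p = 0.0193). With housekeeping centring 1 of the 7 inhibitors was higher and 4 lower, and with Cd3 centring 0 were higher and 5 lower.

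The MuvB core joins p107 or p130 and E2F4 to form the repressor DREAM in resting cells, and joins MYBL2 and FOXM1 to activate mitotic genes in dividing cells. In this list 6 of 8 genes rose on the deposited values. With housekeeping centring 0 were higher and 6 lower, and with Cd3 centring 0 were higher and 8 lower. The weakest of the 6, Lin54, the gene of the DNA-binding subunit of MuvB, changed by 0.34 on the log2 scale (adjusted p = 0.0496 from limma) and was no longer called with the replicate number as a block (adjusted p = 0.0644) or with any 1 array left out, and without resting replicate 1 the count fell to 4. The histone-binding subunit gene Rbbp4 rose 2.99-fold, Foxm1 2.30-fold, Lin9 2.11-fold and Lin37 1.96-fold. Mybl2 rose 1.48-fold by its brighter probe set, with a log2 fold change of 1.56 by the dimmer one, and its brighter probe set was not called without resting replicate 1 (adjusted p = 0.0530). Lin52 and Dyrk1a, the kinase gene whose product triggers DREAM assembly in human cells, had log2 fold changes of 0.0542 and 0.29 and did not pass. Among chromatin proteins tied to pocket proteins or E2F repression, 5 of 7 genes rose, led by the Polycomb methyltransferase gene Ezh2 at 8.13-fold. With housekeeping centring 3 of these 7 were higher and 4 lower, and with Cd3 centring 1 was higher and 4 lower. The deacetylase genes Hdac2 and Hdac1 rose 3.51-fold and 1.65-fold and Rbbp7 rose 3.39-fold, and Hdac1 fell to a log2 fold change of 0.23 after quantile normalization and was then not called (adjusted p = 0.179), whereas Sin3b and Kdm5a had log2 fold changes of 0.15 and 0.0175 and did not pass.

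All 17 measured G1/S genes known as E2F targets rose, with log2 fold changes of 0.82 to 2.69 and a median of 1.71. Pcna, the gene of the replication clamp, read 7.34 and 7.32 in resting Tregs and 10.07 and 9.96 in proliferating Tregs, a 6.44-fold rise. The ribonucleotide reductase gene Rrm2 rose 5.88-fold by its brighter probe set, with a log2 fold change of 3.89 by the dimmer one. Ccna2, the cyclin A gene, and the replicative helicase gene Mcm6 rose 4.23-fold and 4.22-fold. The median of these targets was above the change of each of the 10 E2F and pocket protein genes, as read from their brightest probe sets. The exception among the 11 probe sets was the dimmer one of Rb1, at 2.35. With housekeeping centring 8 of the targets were higher and 3 lower, and with Cd3 centring 2 were higher and 8 lower. After Benjamini-Hochberg adjustment the methods' t-test called 10 of the 17 higher, against 12.5% of all genes. On the deposited values the targets had the largest median of the 6 lists, 1.71, against 1.33 for the kinases, 0.77 for DREAM and MuvB, 0.72 for the chromatin proteins, 0.61 for the inhibitors and 0.40 for the DP list. After quantile normalization the targets still had the largest median, the kinases were at 0.72, and the other 4 lists lay between 0.56 and 0.67.

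**Figure D4:**
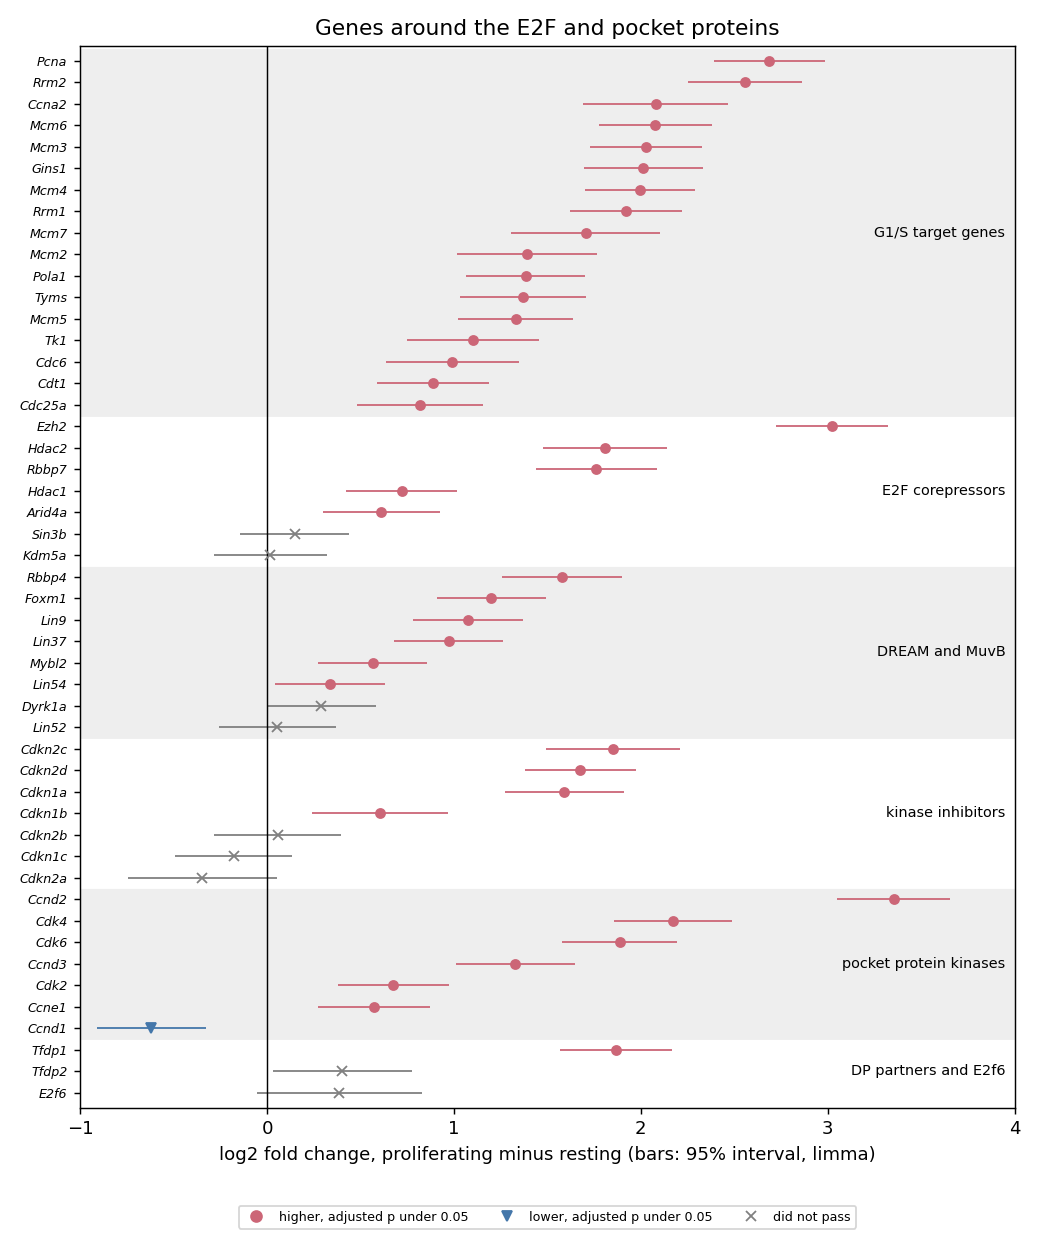
Log2 fold change, proliferating minus resting (horizontal axis), of the 49 measured genes of 6 lists around the E2F and pocket proteins, with 95% intervals from limma. Circles and the single triangle (Ccnd1) passed the test, and crosses did not. The 17 G1/S target genes all lie to the right of 0.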

How the data were processed

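Total RNA of 2 samples of resting and 2 of proliferating Tregs was hybridised to 1 Affymetrix array each. The deposited values are log2 expression values made by the authors with RMA in Partek 6.6 according to the submitters' processing notes. The methods instead name normalization with housekeeping gene controls, analysis in R and another array design, and the log2 scale was taken from the notes and the range of the values. Median values were 6.27 and 6.27 in resting and 6.00 and 5.97 in proliferating arrays, and the correlation across genes was 0.980 and 0.981 within groups and 0.797 to 0.819 between them. The SD across genes was 1.13 and 1.13 in resting and 1.43 and 1.44 in proliferating arrays, so that the spread of deposited values differed between the groups.

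The table holds 41345 probe sets: 23521 with a single gene name, 1820 with several and 16004 unnamed here. Of those with a single name, 23328 were matched to RefSeq (GRCm38.p6) by gene identifier. Each gene was read from its brightest probe set, by the mean of the 4 arrays. The contrast was fitted in R 4.3.3 with limma 3.58.1 (lmFit, eBayes), without a dimness filter, with 2 residual and 5.48 prior degrees of freedom and Benjamini-Hochberg adjustment over 22180 genes. The number of arrays limits the precision. The genes and lists were chosen with earlier results of these data known. Named genes were the 10 genes, up to 4 called genes of each list with those that moved against it, the 3 nearest patterns and the markers, and further list genes were named after their values were seen. Ccne2, Suv39h1 and some other genes and markers of the lists were not analysed here. Alternatives were other probe set rules, a dimness filter, other scalings, a trended prior, a replicate block, the methods' t-test, a minimum change and each array left out. The t-test was run unpaired with a pooled variance, which was a choice made here. For the arrays the methods name Student's t-test without its form, and their statistics section names a paired one for 2 groups.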

Additional observations from a re-analysis of the deposited data

How the results depend on the processing

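Of the 10 genes, all were called higher with the mean of probe sets, every probe set, quantile normalization, median centring and a trended and robust prior. The share of all genes or probe sets called higher was 34.8% after median centring, which raised every log2 fold change, and 25.3% to 26.5% in the others. The probe set rules could move the log2 fold change of Rb1 alone, and the prior moved none. With dim genes left out, E2f5 among them, 9 of 9 were higher, against 46.2% of the 11090 genes kept. Leaving out 1 array gave 7 to 10 genes higher and 8341 to 13272 of all genes called (13335 with all arrays). After Benjamini-Hochberg adjustment the methods' t-test called 2 of the 10 (E2f8 and Rbl2) and 4312 genes in all, with 12.5% of all genes higher. Without adjustment it called 9, with E2f5 not past, and 10094 genes in all, with 22.6% of all genes higher. A minimum log2 fold change of 1 left 5 of the 10 and 3777 genes in all, and without dim genes 8607 of 11090 genes were called. Centred on housekeeping genes, 0 of the 10 were higher and 5 lower, with 20527 genes called in all. The log2 fold changes were -0.92 for E2f1, -0.17 for E2f2, -0.37 for E2f3, -0.44 for E2f4, -0.96 for E2f5, -0.90 for E2f7, -0.18 for E2f8, -0.50 for Rb1, -0.0751 for Rbl1 and -0.14 for Rbl2. Centred on the Cd3 genes, 0 were higher and 10 lower, with 21338 called in all, and in the same order they were -1.47, -0.72, -0.91, -0.99, -1.50, -1.45, -0.73, -1.05, -0.62 and -0.68. These centrings subtract 1 number per array, 1.42 and 1.97 between the groups. Higher genes made up 42.7% of calls on the deposited values, 54.4% after quantile normalization, 69.7% after median centring, 4.49% and 1.54% in the other centrings, 59.5% without dim genes and 64.5% by the t-test with adjustment. With the replicate number as a block all 10 genes remained higher, 13694 genes were called and Lin54 of DREAM and MuvB was lost, leaving 5 of 8. Same-numbered arrays had almost uncorrelated deviations (correlation 0.018 across genes). Whether they came from the same culture or mice is not stated, and 2 arrays per group cannot show it. With 1 array left in a group, it is assumed to vary like the other group.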
